A study of Mus musculus with 69 samples.

Results

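The receptors and nuclear factors of Wnt signalling were followed cell by cell in the dorsal forebrain of mouse embryos. The 10 genes were taken from a fixed list, chosen with earlier results of these data known. It held the Frizzled receptors Fzd1, Fzd3, Fzd5, Fzd7, Fzd8 and Fzd9 and the TCF/LEF transcription factors Tcf7l1, Tcf7l2 and Lef1. It also held Axin2, a feedback inhibitor that is itself a common target of the pathway. These are 10 of 18194 genes that the arrays measured through a probe set naming 1 gene. Small fragments of the dorso-lateral cerebral wall of CD1 embryos at embryonic day 14 were dissociated with trypsin, and single cells were picked by hand. The cDNA of 102 cells was amplified, and 70 samples were chosen for Affymetrix arrays. Shares below therefore describe chosen cells, of which 69 are in the series. No genetic change or treatment is named for any of them. Of the 69 cells, 66 came from the ventricular and subventricular zones (VZ/SVZ), where progenitors divide, and 3 from the cortical plate (CP), where newborn neurons settle. Titles carry a letter whose meaning the labels do not give: A for 7 cells, B for 14, C for 7, D for 7 and X for 31 VZ/SVZ cells, and E for the 3 CP cells. A number follows the letter, and its meaning is not given either: 12 of the 22 numbers occur in more than 1 letter and 0 in both layers, 5 of the 7 letter D cells carry number 18, which no other cell has, and 2 of the 3 CP cells carry 19. Cell layer and that number therefore cannot be told apart. Layers follow the source label, since another label of the CP cells points to the VZ/SVZ.

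Wnt ligands bind Frizzled receptors together with an LRP coreceptor. In the canonical branch this blocks the complex of Axin, APC and GSK3 that marks beta-catenin for degradation, and beta-catenin then enters the nucleus and joins TCF/LEF factors on DNA. Without it, TCF/LEF factors recruit TLE corepressors, and Tcf7l1 is known mainly as a repressor of Wnt targets. In the developing cortex the pathway is known for keeping progenitors dividing, for patterning from the cortical hem and, later, for promoting neuronal differentiation.

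The labels tie no cell to an animal. Each layer was therefore a single sample, its cells were no replicates, and no test was possible. Signals are linear intensities, and a gene was counted in a cell where its signal was above 50, a level that none of the 207 values of the TrpnX control probe sets passed. Means are of log2 signal after values under a floor of 6.26 were set to that floor, and SDs give the spread over cells. Shares carry exact Clopper-Pearson 95% intervals that cover counting error only. They take cells as independent draws, so whether intervals overlap is a description and no test between groups. Where a count was 0, the share that 3 cells would make is given as its limit, with the exact upper bound beside it. A difference of at least 1 log2 unit between means is called higher or lower, which grades size and tests nothing. Probe sets bind with different strength, so a gene's signal was compared between cells and never with another gene's.

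VZ/SVZ cells were also split by 3 markers: Sox2, a transcription factor of neural progenitors, Eomes, which marks intermediate progenitors, and Tubb3, a tubulin of newborn neurons. Sox2 was above 50 in 49 of the 66 VZ/SVZ cells, Eomes in 28 and Tubb3 in 35. Few cells lay near the threshold. Over all 69 cells, 1 had Sox2 between 50 and 100 and 2 between 25 and 50, 0 had Eomes between 50 and 100 and 2 between 25 and 50, and 0 had Tubb3 between 50 and 100 and 1 between 25 and 50. Sox2 alone was above 50 in 20 cells, Sox2 with Eomes in 10, Sox2 with Tubb3 in 8, all 3 in 11, Eomes with Tubb3 in 6, Eomes alone in 1 and Tubb3 alone in 10. All 3 CP cells had Tubb3 alone. These sets are ranges of 3 signals and not cell types.

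As groups the layers differed in these markers, but some VZ/SVZ cells carried neuron markers as CP cells did. A median of 9 of 11 apical progenitor markers was above 50 in VZ/SVZ cells against 2 in CP cells, and 3 of 10 neuron markers against 10 in every CP cell. The 7 cells of letter D, labelled VZ/SVZ, had a median of 2 apical markers (1 to 2) and of 9 neuron markers (8 to 10). Their summed neuron marker signal, 15393 to 21416, overlapped that of the CP cells, 15375 to 20881. Endothelial, microglial and erythroid markers were above 50 in no cell, and 7 of 8 cortical hem and choroid plexus markers in no VZ/SVZ cell, with Rspo3 in 4. Interneuron markers were above 50 in 2 VZ/SVZ cells, 3 of 6 of them in 1 cell, where their summed signal was 2285, Gad2 and Dlx1 being above 50 in no cell. That cell had Sox2, Eomes and Tubb3, and Fzd3 alone of the 10 genes. The Cajal-Retzius markers Reln and Ebf3 were found in 9 VZ/SVZ cells, both in 1 cell, with a summed signal of up to 1352. Single pericyte or meningeal markers were found in 5 (up to 729) and Olig2 in 1. The median was 0 for each of these lists. Without the cell with 3 interneuron markers, the genes called below in each marker split were the same, and the part of the other cells was not tested. Between 3773 and 5806 genes were above 50 per cell. The median was 4770.5 for VZ/SVZ cells and 3982 for CP cells. The spike RNA thr, added at 5 copies per cell, was above 50 in 27 of 66 VZ/SVZ cells and 0 of 3 CP cells. A signal at or under 50 is therefore a limit of detection and does not show that a gene was off.

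RefSeq promoter windows were at hand for 8 of the 10 genes. Shown are stretches chosen among those that hold a core motif, for 3 genes that were higher in Sox2 cells (Tcf7l1, Fzd7 and Tcf7l2) and for Fzd1, which was not. Each ends at or before the annotated transcript start and is written 5′ to 3′ on the gene's strand, from GRCm38.p6: Tcf7l1 at chr6:72789046-72789295 (minus strand), Fzd7 at chr1:59481897-59482146 (plus), Tcf7l2 at chr19:55741560-55741759 (plus; its first 200 of 250 bases) and Fzd1 at chr5:4758217-4758466 (minus). Capitals mark the TCF/LEF core CTTTGA, which reads TCAAAG on the other strand, and 2 SOX cores. The first is ACAAAG, which reads CTTTGT on the other strand. The second is ACAATG, which reads CATTGT there. Each name is a label for these letters only and does not say which factor would bind them. Other forms of either core were not sought.
Tcf7l1: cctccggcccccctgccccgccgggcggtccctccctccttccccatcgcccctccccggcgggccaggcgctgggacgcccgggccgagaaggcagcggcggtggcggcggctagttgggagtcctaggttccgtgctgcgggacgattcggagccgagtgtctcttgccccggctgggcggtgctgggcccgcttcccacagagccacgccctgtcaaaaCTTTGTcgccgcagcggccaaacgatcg
Fzd7: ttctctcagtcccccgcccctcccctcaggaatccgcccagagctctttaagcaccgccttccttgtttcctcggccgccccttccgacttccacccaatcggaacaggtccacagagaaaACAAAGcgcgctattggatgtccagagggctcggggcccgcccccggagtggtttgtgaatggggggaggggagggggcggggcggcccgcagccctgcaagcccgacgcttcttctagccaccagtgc
Tcf7l2: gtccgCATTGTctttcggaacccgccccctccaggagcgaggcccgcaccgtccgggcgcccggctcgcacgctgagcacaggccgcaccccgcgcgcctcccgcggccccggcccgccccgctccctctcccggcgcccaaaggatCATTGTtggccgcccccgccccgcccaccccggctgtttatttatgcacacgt
Fzd1: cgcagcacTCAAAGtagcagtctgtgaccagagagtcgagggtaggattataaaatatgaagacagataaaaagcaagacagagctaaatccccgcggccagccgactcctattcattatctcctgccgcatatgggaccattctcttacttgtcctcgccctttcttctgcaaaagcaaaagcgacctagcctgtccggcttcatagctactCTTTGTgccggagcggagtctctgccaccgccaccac
The Tcf7l1 stretch held 1 SOX core, 28 to 23 bases before the start, and that of Fzd7 held 1, 129 to 124 bases before it. Tcf7l2 held CATTGT at 245 to 240 and again at 103 to 98 bases before the start. Fzd1 held both a TCF/LEF core, at 242 to 237 bases, and a SOX core, at 37 to 32 bases. Over 32851 RefSeq windows of 250 bases, 25.2% held a SOX core of either kind and 13.8% the TCF/LEF core. The windows of Axin2, Fzd5 and Fzd9 held none of these letters. Of these, Axin2 and Fzd9 were higher in Sox2 cells. Of the 4 windows of Lef1, which was not, 1 held 2 TCF/LEF cores and both SOX cores. The cores thus occurred, and were missing, on both sides of the Sox2 split, and a match is a description of the sequence only.

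Of the 10 genes, Fzd8 had the largest differences between cells with and without Sox2 and with and without Tubb3. Read by probe set 1423348_at, it was above 50 in 48 of 66 VZ/SVZ cells (72.7%, interval 60.4% to 83%), with a lowest signal of 0.534, a median of 826.8 and a highest of 3259. No cell lay between 25 and 100: the cells without it ended at 16.9 and those with it began at 141. The 3 CP cells read 0.841, 0.647 and 0.584. Fzd8 was thus either well above 50 or well under it in every cell, and under it in each CP cell.

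Every one of the 31 VZ/SVZ cells without Tubb3 had Fzd8, from 177 through a median of 1278 to 3259. Of the 35 with Tubb3, 17 had it (48.6%, 31.4% to 66%), from 0.534 through a median of 16.9 to 2838. The interval for the cells without Tubb3 was 88.8% to 100%, so the intervals did not overlap, although the ranges of signal did. By marker set, Fzd8 was above 50 in 20 of 20 cells with Sox2 alone, 10 of 10 with Sox2 and Eomes, 8 of 8 with Sox2 and Tubb3, 5 of 11 with all 3 markers, 3 of 6 with Eomes and Tubb3, 1 of 1 with Eomes alone and 1 of 10 with Tubb3 alone. Among cells with Tubb3, the 17 with Fzd8 had a median Tubb3 signal of 598.0 (124 to 2368), and the 18 without it a median of 2434 (504 to 5653). The median Sox2 signal was 1042 in the former and 3.87 in the latter. These ranges overlapped, and Fzd8 was missing mostly from the cells with the strongest Tubb3.

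The title letters gave the same picture for Fzd8. All 7 cells of letter A had it, 883 through 1494 to 2838, as did 27 of 31 of letter X, 10 of 14 of letter B and 4 of 7 of letter C, and it was above 50 in 0 of 7 cells of letter D, where the highest signal was 6.68 and a count of 0 allows a share of up to 42.9% (exact bound 41%). The order of medians was A (1494), X (1222), B (788.4), C (398.2) and D (0.810). The range of A overlapped those of X and B but not that of C, whose highest signal was 623, nor that of D. Letter A cells all had Sox2 and none had Eomes, and letter D cells all had Tubb3 alone, so that the order of letters and that of marker sets describe much the same cells.

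**Figure D1:**
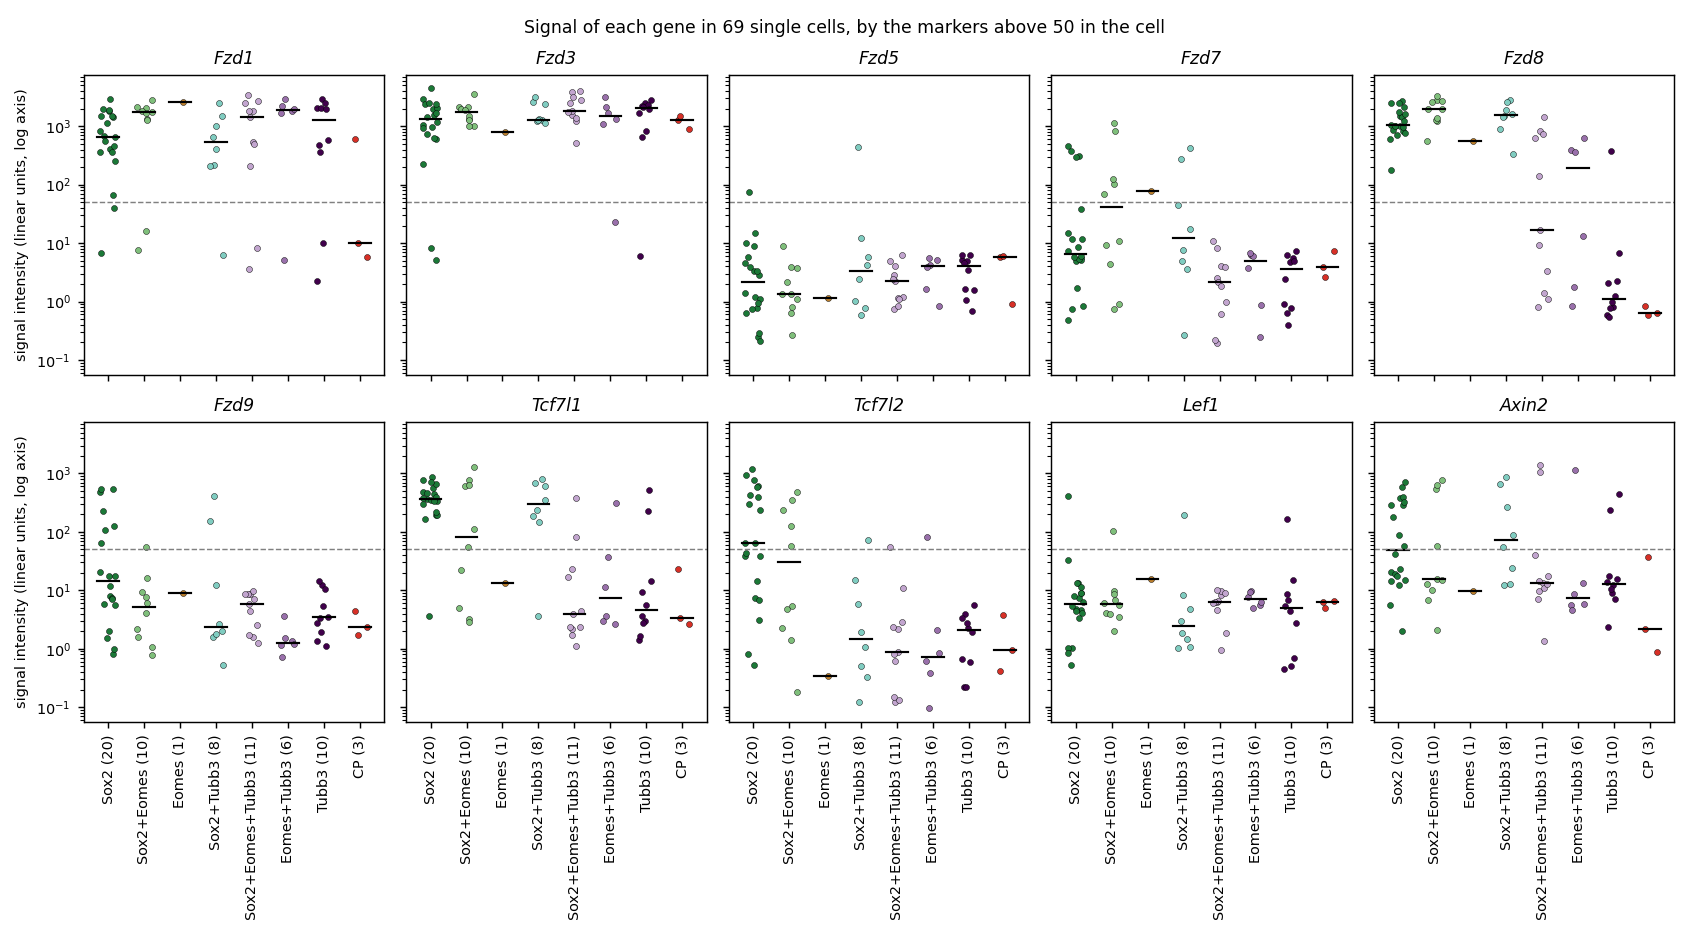
Signal of each of the 10 genes (log axis, linear intensity units) in all 69 cells, 1 point per cell, in columns by which of Sox2, Eomes and Tubb3 was above 50, with the number of cells in parentheses; bars are medians and the dashed line is 50. Fzd1 and Fzd3 are above 50 in most cells of every VZ/SVZ set, while Fzd8 is above 50 in all 31 cells without Tubb3 and drops out of most cells with Tubb3 alone.

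Fzd1 and Fzd3 were found in most VZ/SVZ cells whatever the marker. Fzd3 (1434788_at), a receptor of the planar polarity branch known for its part in axon tract formation, was above 50 in 62 of 66 (93.9%, 85.2% to 98.3%), from 5.05 through 1614 to 4492. The 3 CP cells read 1265.9, 892.9 and 1476.2, within the VZ/SVZ range. Its share was 18 of 20 in cells with Sox2 alone and 9 of 10 in those with Tubb3 alone, and medians by letter ran from 1266 in E to 1701 in D with overlapping ranges. Cells with Sox2 and cells with Tubb3 thus overlapped in Fzd3.

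Fzd1 (1437284_at) was above 50 in 56 of 66 VZ/SVZ cells (84.8%, 73.9% to 92.5%), from 2.26 through 1306 to 3369. The 3 CP cells read 616.6, 5.83 and 9.88, so 1 of 3 had it, and the ranges overlapped. Inside the VZ/SVZ its share was 18 of 20 in cells with Sox2 alone and 8 of 10 in cells with Tubb3 alone. All 7 cells of letter C had Fzd1, from 505 through 2489 to 3369, while the medians of letters A and D were 356.4 and 469.4 with overlapping ranges. Fzd1 was at or under 50 in 10 VZ/SVZ cells and Fzd3 in 4, and no VZ/SVZ cell lacked both.

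Fzd7, a receptor tied to canonical signalling in stem cells, was read by 1450044_at and was above 50 in 12 of 66 VZ/SVZ cells (18.2%, 9.76% to 29.6%), from 0.193 through 5.58 to 1145. The CP cells read 3.82, 7.24 and 2.6. It was above 50 in 4 of 20 cells with Sox2 alone, 5 of 10 with Sox2 and Eomes, 2 of 8 with Sox2 and Tubb3 and the 1 cell with Eomes alone. Among Eomes cells it was in 6 of 11 without Tubb3 (54.5%, 23.4% to 83.3%) and 0 of 17 with Tubb3, which allows a share of up to 17.6% (exact bound 19.5%). The highest signal in the latter was 11.1, and the 6 cells with Fzd7 began at 70.7. All 12 Fzd7 cells had Fzd8, Fzd1 and Fzd3.

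Fzd9 (1427529_at) was above 50 in 10 of 66 VZ/SVZ cells (15.2%, 7.51% to 26.1%), from 0.524 through 5.70 to 544.8, and the CP cells read 4.35, 2.39 and 1.73. It was found in 7 of 20 cells with Sox2 alone, 2 of 8 with Sox2 and Tubb3 and 1 of 10 with Sox2 and Eomes, the last at 55.5. All 10 had Sox2, and all had Fzd8 and Tcf7l1. In the 17 cells without Sox2 its highest signal was 14.2. Fzd5 (1455604_at), a receptor of eye and vascular development, was above 50 in 2 VZ/SVZ cells, at 75.3 and 436.6, and in 0 of 3 CP cells, with all other cells at or under 15.1.

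A cell seldom had only 1 of these receptors. Of the 66 VZ/SVZ cells, 7 had 1 of the 6 Frizzled genes above 50, 16 had 2, 24 had 3, 16 had 4 and 3 had 5, and the CP cells had 2, 1 and 1. Fzd1, Fzd3 and Fzd8 made up most of these sets. Other probe sets of the same genes were dimmer and nested: the second Fzd8 probe set was above 50 in 27 cells, all among the 48, and the 5 other Fzd3 probe sets in 1 to 12 cells, all among the 65 found over both layers. The second Fzd7 probe set was above 50 in 1 cell, which was not among the 12, and that of Fzd5 in 0 cells. That of Fzd1 was above 50 in 2 cells, both among the 57 found over both layers.

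Tcf7l1, the TCF factor best known as a repressor, was read by 1436207_at and was above 50 in 37 of 66 VZ/SVZ cells (56.1%, 43.3% to 68.3%), from 1.09 through 158.3 to 1279. The CP cells read 23.1, 2.67 and 3.30. It was above 50 in 19 of 20 cells with Sox2 alone (95%, 75.1% to 99.9%) and 7 of 8 with Sox2 and Tubb3. The share was 6 of 10 with Sox2 and Eomes, 2 of 11 with all 3 markers, 1 of 6 with Eomes and Tubb3, 0 of 1 with Eomes alone and 2 of 10 with Tubb3 alone. Cells with Eomes had it in 9 of 28 (32.1%, 15.9% to 52.4%) and cells without Eomes in 28 of 38 (73.7%, 56.9% to 86.6%), 2 intervals that do not overlap.

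By letter, Tcf7l1 was above 50 in 7 of 7 cells of A, from 187 through 378.2 to 818.6, 24 of 31 of X, 4 of 14 of B, 2 of 7 of C and 0 of 7 of D, whose highest signal was 14.5. The order of medians was A (378.2), X (342.8), C (13.2), B (4.44) and D (3.66). The range of A overlapped those of X, B and C but not that of D, and those of B, C and D overlapped. Tcf7l1 was thus at or under 50 in most Eomes cells as well as in most Tubb3 cells. Among the 11 Eomes cells without Tubb3, Fzd8 was above 50 in 11 and Tcf7l1 in 6. A second Tcf7l1 probe set was above 50 in 22 cells, 21 of them among the 37.

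Tcf7l2, which with beta-catenin activates Wnt targets, was read by 1429428_at and was above 50 in 19 of 66 VZ/SVZ cells (28.8%, 18.3% to 41.3%), from 0.0958 through 3.21 to 1178. The CP cells read 0.423, 0.959 and 3.73. It was found in 11 of 20 cells with Sox2 alone, 5 of 10 with Sox2 and Eomes, and 1 each of the 8 with Sox2 and Tubb3, the 11 with all 3 markers and the 6 with Eomes and Tubb3. In cells with Tubb3 alone it was in 0 of 10, which allows a share of up to 30% (exact bound 30.8%). Without Tubb3 the count was 16 of 31 (51.6%, 33.1% to 69.8%), up to 1178, and with Tubb3 it was 3 of 35 (8.57%, 1.8% to 23.1%), up to 82.7. The 8 cells with Sox2 and Tubb3, all with Fzd8 and 7 with Tcf7l1, thus had Tcf7l2 once, at 72.4. The signals of 6 of the 19 cells were between 50 and 100 and 3 more cells lay between 25 and 50, so this count is less sharp than that of Fzd8. Other Tcf7l2 probe sets were above 50 in 2, 2 and 0 cells. For each of those found in 2 cells, 1 cell was among the 19 and 1 was not. These cells had Sox2 and no Tubb3, but they are few, so the Tcf7l2 pattern rests on 1 probe set.

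Lef1 (1454734_at), a mostly activating factor prominent near the cortical hem and in the hippocampal field, was above 50 in 4 of 66 VZ/SVZ cells (6.06%, 1.68% to 14.8%) and 0 of 3 CP cells. The 4 cells belonged to 4 marker sets, at 407.2 with Sox2 alone, 103.4 with Sox2 and Eomes, 195.8 with Sox2 and Tubb3 and 167.3 with Tubb3 alone. All others were at or under 33.1, and a second probe set was above 50 in 0 cells. These 4 cells are too few to set Lef1 against the markers.

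Axin2, the feedback gene, was read by 1436845_at and was above 50 in 24 of 66 VZ/SVZ cells (36.4%, 24.9% to 49.1%), from 1.35 through 16.6 to 1406. The CP cells read 2.17, 0.893 and 36.7. It was above 50 in 10 of 20 cells with Sox2 alone, 4 of 10 with Sox2 and Eomes, 5 of 8 with Sox2 and Tubb3, 2 of 11 with all 3 markers, 1 of 6 with Eomes and Tubb3 and 2 of 10 with Tubb3 alone. Its strongest cell, at 1406, was of letter B and had all 3 markers. By letter, 16 of 31 cells of X had it and 0 of 7 of C, with a highest signal of 41 in C, while A, B and D gave 2 of 7, 4 of 14 and 2 of 7. Axin2 was thus present in a part of every larger marker set, and its intervals with Sox2 (42.9%, 28.8% to 57.8%) and without Sox2 (17.6%, 3.8% to 43.4%) overlapped. A second Axin2 probe set was above 50 in 0 cells, so this pattern rests on 1 probe set.

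**Figure D2:**
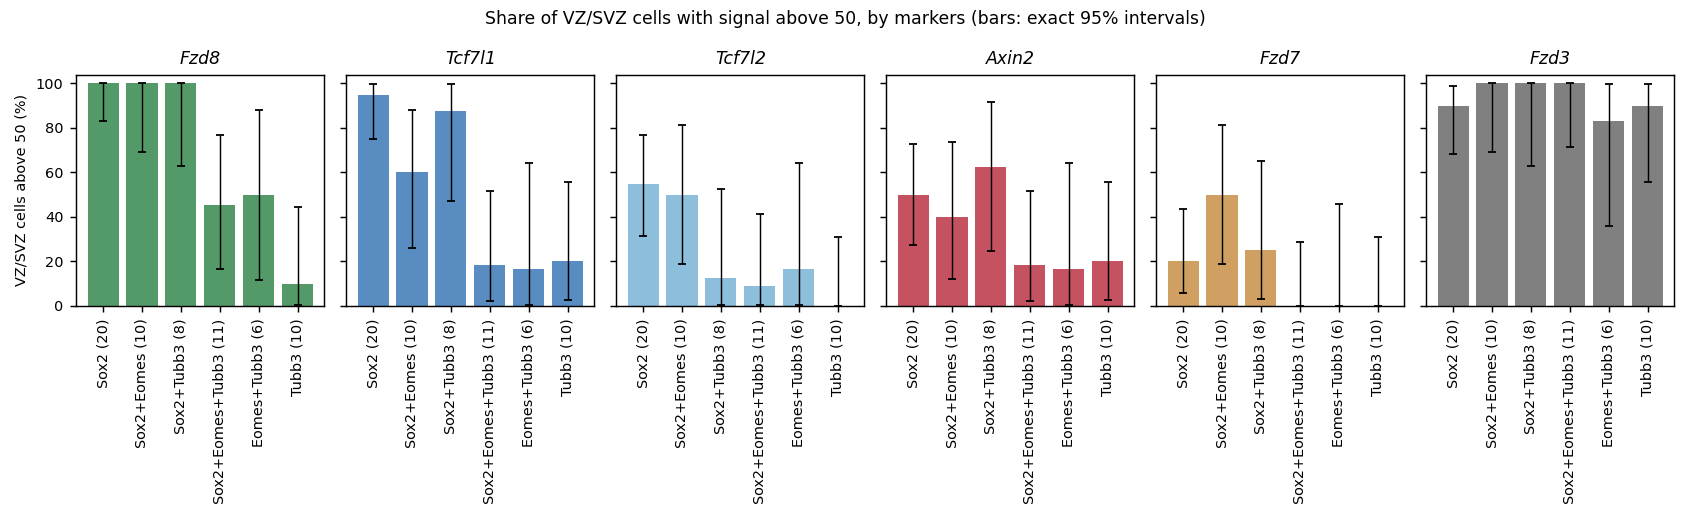
Share of VZ/SVZ cells with signal above 50 (percent, axis from 0) for 6 of the genes, in 6 marker sets with the number of cells in parentheses (the 1 cell with Eomes alone is not shown); error bars are exact 95% intervals for counting error. Fzd8 is at 100% in the 3 sets with Sox2 but without Eomes and Tubb3 together, Tcf7l2 falls to 12.5% in cells with Sox2 and Tubb3 where Tcf7l1 is at 87.5%, and Fzd3 stays at or above 83.3% throughout.

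Over all VZ/SVZ cells, several of the genes occurred in the same cells. Fzd8 and Tcf7l1 were both above 50 in 34 VZ/SVZ cells, which was 70.8% of Fzd8 cells and 91.9% of Tcf7l1 cells, and their log2 signals had a Pearson correlation of 0.56 over the 66 cells. Of the 19 Tcf7l2 cells, 18 had Fzd8 (r = 0.37) and 14 had Tcf7l1 (r = 0.34). Of the 24 Axin2 cells, 21 had Fzd8 (r = 0.28), 17 had Tcf7l1 (r = 0.15) and 9 had Tcf7l2 (r = 0.12). Fzd8 was thus in 87.5% of Axin2 cells and 72.7% of all VZ/SVZ cells, and Tcf7l2 in 37.5% and 28.8%. Within the 30 cells with Sox2 and no Tubb3 the correlation was 0.13 for Fzd8 with Tcf7l1 and 0.01 for Fzd8 with Tcf7l2. It was 0.04 for Tcf7l1 with Tcf7l2. With Axin2 it was 0.13 for Fzd8, 0.18 for Tcf7l1 and 0.01 for Tcf7l2. Over all pairs of the 10 genes it ran there from -0.40 (Fzd8 with Fzd9) to 0.31 (Fzd1 with Fzd7). Fzd8 was above 50 in all 30 cells, with an SD of 0.90 against 3.39 over the 66. A correlation can be smaller in so narrow a range. The points of these correlations are single cells that share library depth and cell state, and the correlations are descriptions.

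CP cells were compared with all VZ/SVZ cells. By the rule of 1 log2 unit, CP was lower for 6 of the 10 genes and higher for 0, where it was lower for 20.9% and higher for 11% of all 18194 genes. Of the 9003 genes above 50 in at least 7 cells, 42% were lower in CP and 17.8% higher. Fzd8 differed by -5.47 (CP 2.65 ± 0.00, SD, 3 cells, against 8.12 ± 3.39, 66 cells). Its VZ/SVZ geometric mean was 5.55-fold of 50, which no CP cell passed. Values under 6.26 were raised to it in that mean, so the fold depends on the floor and is not a strict lower bound. Tcf7l1 differed by -2.82, its VZ/SVZ geometric mean was 1.37-fold of 50, and without the CP cell at 23.1 the difference was -3.45. Fzd1 differed by -3.98 (5.07 ± 3.65 against 9.05 ± 2.77). Without the CP cell that read 616.6 the Fzd1 difference was -6.07, and without either other CP cell it was -2.76 or -3.09.

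Axin2 differed by -1.82 between CP and VZ/SVZ, which became -2.67 without the CP cell at 36.7. Tcf7l2 differed by -1.69 and Fzd7 by -1.12. For these 2 genes and Axin2 the VZ/SVZ means were under 50 and the CP cells, apart from Axin2 at 36.7 in 1 of them, at or near the floor, so that the sizes depend on the floor, no bound on the fold can be given, and with a floor of 50 none of the 3 reached 1 unit. Fzd9 (-0.99), Lef1 (-0.52), Fzd5 (-0.21) and Fzd3 (0.01) did not reach 1 unit. The median over the 10 genes was -1.41, against -0.05 for all genes and -0.70 for genes above 50 in at least 7 cells. Set against only the 35 VZ/SVZ cells with Tubb3, 4 genes were lower in CP (Fzd1, Fzd8, Tcf7l1 and Axin2) and the median was -0.46. Against only the 7 VZ/SVZ cells of letter D, 2 genes were lower in CP, Fzd1 (-2.79) and Axin2 (-1.37), while Fzd8 differed by -0.01, Tcf7l2 by 0.00, Fzd7 by 0.03 and Tcf7l1 by 0.37. For these 4 genes CP cells thus lay within 1 unit of letter D cells. Shares over all genes were computed for the full groups only. The counts for these and later subsets or fits have none beside them. Of the 3 CP cells, 2 had fewer genes above 50 than the VZ/SVZ median (3776 and 3982) and the other 4795, and 0 had the thr spike. The part of depth in the counts was not tested.

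Between VZ/SVZ cells with and without Sox2, 6 of the 10 genes were higher with Sox2 and 0 lower, where 12.7% of all genes were higher and 6.99% lower, and 25.6% of the 9003 genes above 50 in at least 7 cells were higher and 13.6% lower. Fzd8 was higher by 4.83 (9.36 ± 2.59 in 49 cells against 4.53 ± 2.87 in 17), Tcf7l1 by 2.79, Tcf7l2 by 1.98, Axin2 by 1.43, Fzd7 by 1.29 and Fzd9 by 1.06. The other 4 lay between -0.29 (Fzd1) and 0.46 (Fzd3). The median of the 10 was 1.17, against 0.01 for all genes and 0.26 for those above 50 in at least 7 cells. Among cells of letter X only, 26 with and 5 without Sox2, the same 6 genes were higher, and Fzd1 was lower by 1 unit or more, at -2.10.

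Between cells with and without Tubb3, 5 of the 10 genes were lower with Tubb3 and 0 higher, where 7.27% of all genes were lower and 5.39% higher, and 14.7% of the 9003 were lower and 10.9% higher. Fzd8 differed by -4.16 (6.16 ± 3.59 in 35 cells against 10.32 ± 0.91 in 31), Tcf7l2 by -2.84, Tcf7l1 by -2.70, Fzd7 by -1.46 and Fzd9 by -1.08. Axin2 (-0.75), Fzd1 (-0.28), Lef1 (-0.18), Fzd5 (-0.01) and Fzd3 (0.41) did not reach 1 unit. The median of the 10 was -0.92 against -0.01 for all genes. Within letter X the Fzd8 difference was -3.14, and the same 5 genes were lower. In a fit with the title number as a block, 3 were lower with Tubb3, Fzd8 (-2.51), Tcf7l2 (-2.66) and Tcf7l1 (-1.46).

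Between cells with and without Eomes the genes differed less. Of the 10, 2 were lower with Eomes and 0 higher, where 5.23% of all genes were lower and 4.15% higher, and 10.5% of the 9003 were lower and 8.33% higher. Tcf7l1 differed by -2.27 (4.79 ± 2.66 in 28 cells against 7.05 ± 2.65 in 38) and Fzd9 by -1.21. Fzd8 differed by -0.66 and Fzd3 by 0.60. With the title number as a block, 1 gene was lower, Tcf7l1 (-2.36). Without the 5 cells of number 18, 4 were lower, Fzd8 (-1.53) and Tcf7l2 (-1.23) among them. Of the 28 Eomes cells, 17 also had Tubb3, so the Eomes and Tubb3 splits share cells. The same cells enter all 3 marker splits, which are therefore not independent of each other.

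**Figure D3:**
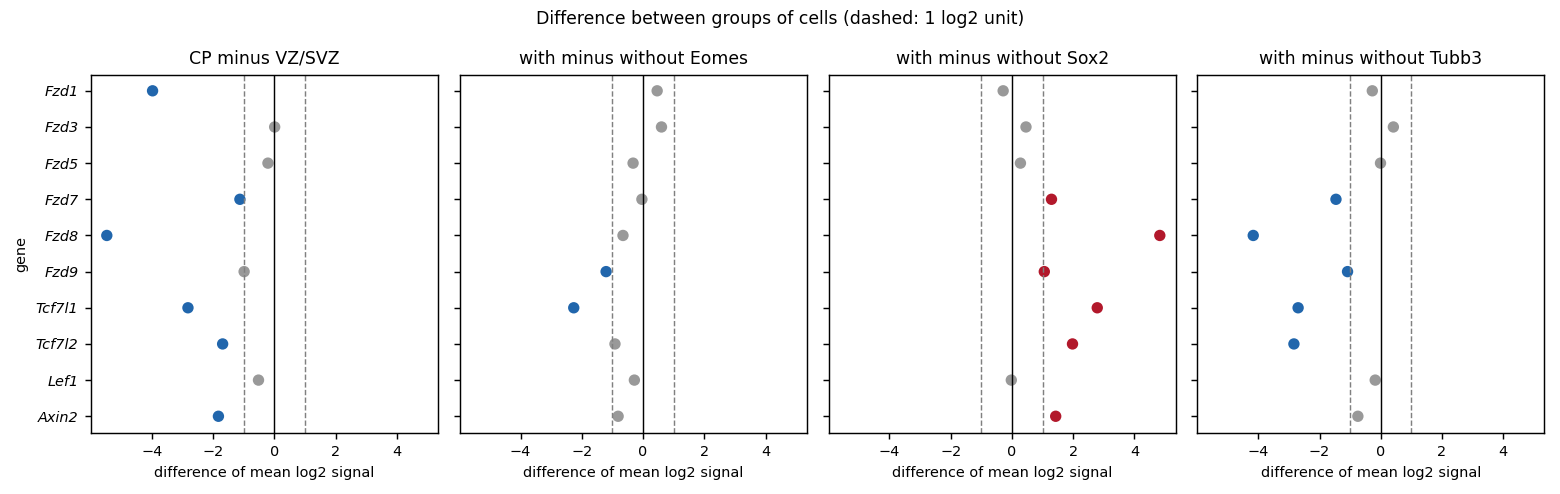
Difference of mean log2 signal (x axis, log2 units) for the 10 genes in 4 comparisons: CP minus VZ/SVZ, and VZ/SVZ cells with minus without Eomes, Sox2 or Tubb3 above 50; dashed lines mark 1 unit, blue points are lower and red points higher by at least that. Fzd8 lies at -5.47, -0.66, 4.83 and -4.16, while Fzd3 stays within 1 unit in all 4.

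Depth moved with the Sox2 and Tubb3 splits. The median number of genes above 50 was 4954 with and 4236 without Sox2, and 4688 with and 4954 without Tubb3. The thr spike was above 50 in 15 of 30 cells with Sox2 and no Tubb3 and in 5 of 16 with Tubb3 and no Sox2, while the phe spike, at 20 copies, read 9.27 ± 0.90 and 8.87 ± 1.22 on the log2 scale in them. The more abundant spikes lay the other way, with dap at 11.08 ± 0.62 and 11.33 ± 0.54 and lys at 12.85 ± 0.17 and 12.92 ± 0.13. Over the 66 cells the correlation with the number of genes above 50 was 0.28 for Fzd8, 0.40 for Tcf7l1 and 0.14 for Tcf7l2. With Tubb3 it was -0.74, -0.55 and -0.59, and with Sox2 0.70, 0.50 and 0.36. For Fzd7, Fzd9 and Axin2 the correlation with the number of genes was 0.12, 0.22 and 0.09. With Tubb3 theirs was -0.40, -0.32 and -0.19, and with Sox2 0.31, 0.27 and 0.30. The part of depth in these splits was not tested. With a common trimmed mean for every cell, the same 6 genes were higher with Sox2 and the same 5 lower with Tubb3, and with quantile normalization the counts were 5 and 4, without Fzd9 in either.

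Other genes of the pathway came from a list of 92 by role, of which 88 were measured. Ligands were rare: 19 of 23 were above 50 in no cell. Wnt7a was above 50 in 19 VZ/SVZ cells, Wnt7b in 17, Wnt5b in 11 and the agonist Rspo3 in 4, and in CP cells only Wnt7b (3 of 3) and Rspo3 (1 of 3) were found. The 2 Wnt7 genes divided the cells: Wnt7a was in 13 of 30 cells with Sox2 and no Tubb3 and 0 of 16 with Tubb3 and no Sox2, and Wnt7b in 1 of 30 and 13 of 16. Wnt7a thus lay on the side of Fzd8 and Tcf7l1, and Wnt7b on the side where they were missing.

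Among the other 13 receptors and coreceptors, Fzd2 was above 50 in 59 of 66 VZ/SVZ cells and 0 of 3 CP cells (2.22, 3.59 and 4.40 in order of size). Its VZ/SVZ geometric mean, taken after the floor, was 9.52-fold of 50. The coreceptor Lrp6 was above 50 in 41 and Ryk in 42 VZ/SVZ cells. Beta-catenin (Ctnnb1) was above 50 in 66 of 66 at 12.45 ± 0.29. Sfrp1, a secreted inhibitor, was above 50 in 64, and Sfrp2 in 34 of 49 Sox2 cells but 0 of 17 without Sox2. The Sfrp2 geometric mean in Sox2 cells, taken after the floor, was 2.28-fold of 50. Ctnnb1 was thus found in every cell, and most ligands in none.

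Over the 88 genes, 15 were lower and 17 higher in CP, 7 lower and 5 higher with Eomes, 9 lower and 10 higher with Sox2, and 10 lower and 8 higher with Tubb3. The medians of the 88 were -0.03, -0.05, 0.00 and -0.01. Of all 18194 genes, 20.9% were lower and 11% higher in CP, and 5.23% lower and 4.15% higher with Eomes. With Sox2 these shares were 6.99% and 12.7%, and with Tubb3 7.27% and 5.39%. With Sox2, the largest positive differences were in Sfrp2 (3.93), the cortical patterning gene Emx2 (3.87), the cell cycle gene Ccnd1 (2.87) and Wnt7a (2.25), and the largest negative ones in Wnt7b (-3.61), Porcn, which acylates Wnt ligands (-3.55), Apc2 (-3.40) and Apc (-2.93). With Tubb3, Emx2 (-2.95), Sfrp2 (-2.70), Ccnd1 (-2.15) and Sfrp1 (-1.72) were lower, and Porcn (2.32), Apc2 (2.29), Wnt7b (2.08) and Nkd1 (1.75) higher.

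With Eomes, the corepressor Tle1 (-3.43), Tnfrsf19 (-3.02), Wnt7a (-1.74) and Kremen1 (-1.66) had the largest negative differences, and the kinase Hipk2 (2.24), Nkd1 (1.25), Neurog1 (1.19) and Btrc (1.11) the largest positive ones. Tle1 was above 50 in 10 of 28 Eomes cells and 32 of 38 without Eomes, a split like that of Tcf7l1 (9 of 28 and 28 of 38). In CP, Fzd2 (-6.25), Hipk2 (-4.64), Emx2 (-4.31) and Ccnd1 (-3.52) had the largest negative differences. All 3 CP cells were at or under 50 for each, so the sizes and their order depend on the floor. The VZ/SVZ geometric means, taken after the floor, were 9.52-fold of 50 for Fzd2, 5.33-fold for Hipk2, 2.49-fold for Emx2 and 2.68-fold for Ccnd1. Tnfrsf19 (4.47), Wnt7b (3.47), Apc2 (3.07) and Apc (3.06) had the largest positive ones. The pathway list thus held genes on both sides of each split. None of the 10 genes was higher by 1 unit in CP, Eomes or Tubb3 cells. Both lists were chosen with earlier results of these data known, and 32 of the 88 genes were above 50 in no cell. The lists are therefore not set against each other.

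The genes whose log2 signal was most like each member over the 66 VZ/SVZ cells were taken from 6718 genes above 50 in at least 20 cells. For Fzd8 they were Gas1, a membrane protein of Hedgehog signalling (r = 0.90), and the SOX factors Sox1 (0.83) and Sox21 (0.78). Gas1 was above 50 in 49 cells and shared 47 of them with the 48 Fzd8 cells, and in the 31 cells of letter X the correlation was 0.84. The CP cells had Gas1 at 1.93 or less. For Tcf7l1 they were the endothelin receptor Ednrb (0.73), Sox3 (0.73) and Gli3 (0.70), and all 37 Tcf7l1 cells had Gli3. Within letter X these fell to 0.53, 0.69 and 0.59.

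For Axin2 the closest genes were Tacc1 (0.46), Purb (0.46) and Rnf180 (0.43), for Fzd3 Capza1 (0.53), Lsm8 (0.51) and Cacybp (0.49), and for Fzd1 Snhg1 (0.42), Pgrmc1 (0.39) and Gm11517 (0.37). By rank (Spearman) these correlations were 0.49, 0.46 and 0.46 for Axin2, 0.29, 0.32 and 0.29 for Fzd3, and 0.16, 0.23 and 0.35 for Fzd1. Within letter X the Pearson values were 0.43, 0.44 and 0.43 for Axin2, 0.32, 0.15 and 0.57 for Fzd3, and 0.56, 0.39 and 0.43 for Fzd1. No gene followed Axin2, Fzd1 or Fzd3 as closely as Gas1 followed Fzd8. The cells share depth and cell state, so likeness here is a description.

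**Figure D4:**
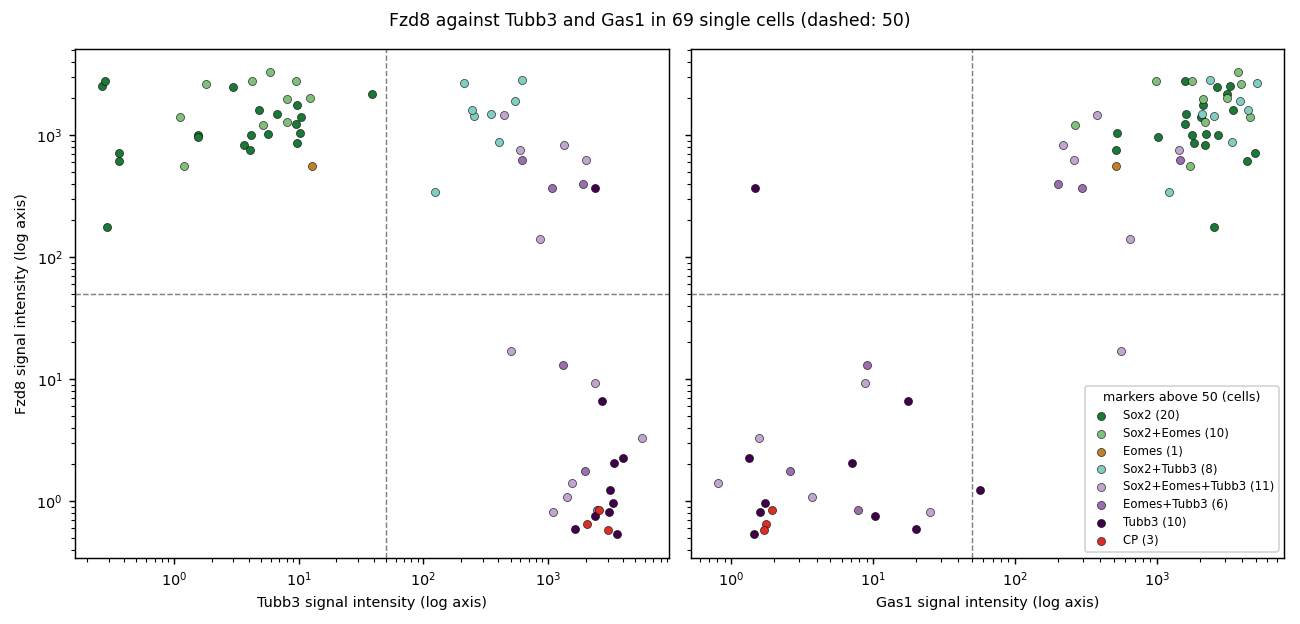
Fzd8 signal (y, log axis) against Tubb3 (left) and Gas1 (right) in 69 cells, both on log axes in linear intensity units, 1 point per cell coloured by its markers above 50 (number of cells in the key); dashed lines are at 50. All 31 VZ/SVZ cells without Tubb3 have Fzd8, the 18 VZ/SVZ cells without Fzd8 all have Tubb3, and 47 cells have both Fzd8 and Gas1.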

How the data were processed

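The series holds single cells of mouse embryonic dorsal forebrain, and the deposited values are probe set intensity values on a linear scale, made by the authors with MAS5 per the submitters' processing notes (version and scaling not given in the sources used here). Cells differed in their 2% trimmed mean, from 50.1 to 142. Of 45101 probe sets, 34958 name 1 gene in the platform annotation, and Entrez identifiers of 34754 were found in RefSeq (GRCm38.p6). Each gene was read from its brightest probe set, by mean log2 signal in the 69 cells.

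Values under 6.26, the 95th percentile of TrpnX controls, were raised to it before log2. No 2 cells were identical in all values, and no doublet caller was run on these hand-picked cells. The comparison was checked on simulated data, where each gene's VZ/SVZ signals were shuffled into equal groups and some genes of high mean signal were shifted. That check does not cover groups as unequal as CP and VZ/SVZ, cells that share depth, or genes near the floor. Python 3.11.15, numpy 2.4.6, pandas 2.3.3 and scipy 1.17.1 were used.

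The 10 genes, the pathway and marker lists and the rule for named genes were chosen with earlier results of these data known. The rule names every member and the 3 split markers, up to 4 other pathway genes per comparison and direction with the largest difference of at least 1 log2 unit, and, for members above 50 in at least 20 cells, the 3 genes with the highest correlation; Wnt5b, Rspo3, Lrp6, Ryk and Ctnnb1 were named outside it, after their values were seen. Alternatives were a floor of 50, a common trimmed mean, quantile normalization, the mean of a gene's probe sets, thresholds of 25 and 100, cells of letter X only or left out, each CP cell left out, CP against Tubb3 cells only, and, added after seeing the data, the dimmer probe set of Fzd8 and Tcf7l1, CP against letter D cells, the marker splits without title number 18 or without 1 cell with interneuron markers, and the title number as a block. Promoter stretches are RefSeq's.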

Additional observations from a re-analysis of the deposited data

How the results depend on the processing

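The counts of the 10 genes depended on how low signals were treated. With a floor of 50, 3 genes were lower in CP (Fzd1, Fzd8 and Tcf7l1), 1 was lower with Eomes (Tcf7l1), 2 were higher with Sox2 (Fzd8 and Tcf7l1) and 3 were lower with Tubb3 (Fzd8, Tcf7l1 and Tcf7l2). With the mean of each gene's probe sets, 3 were lower in CP (Fzd1, Fzd8 and Tcf7l1), 3 higher with Sox2 (Fzd8, Fzd9 and Tcf7l1) and 3 lower with Tubb3 (Fzd8, Fzd9 and Tcf7l1). Among cells of letter X alone, 1 gene, Fzd1, was lower with Sox2. Leaving out each CP cell in turn gave 6 to 6 genes lower and 0 to 0 higher. Of 428 alternative differences, 407 stayed within 1 SD of the spread over cells, 19 moved further and 2 called ones changed sign, Fzd7 (0.033) and Tcf7l1 (0.37) in CP against letter D cells only. That SD often exceeded the 1 unit of a call, so staying within it does not mean that a call held. Tcf7l2 in CP went from -1.69 to 0.00 against letter D cells, within its SD of 2.48. All 40 shares with thresholds of 25 and 100 stayed within their intervals, which are wide for the 3 CP cells. On their dimmer probe sets, an alternative added after seeing the data, Fzd8 differed by 1.61 with Sox2, -1.38 with Tubb3 and -2.14 in CP, and Tcf7l1 by 1.36, -1.08 and -1.63. Other alternatives added after seeing the data concerned the cells. Against VZ/SVZ cells of letter D only, 2 genes were lower in CP. Without the cells of title number 18, 4 genes were lower with Eomes and 1, Fzd1, lower with Sox2 (-1.21). With the title number as a block, 1 gene was lower with Eomes and 3 with Tubb3, while with Sox2 6 were higher, Fzd3 in place of Fzd9. Only cells whose number occurs on both sides inform that fit. Without the cell with 3 interneuron markers no count changed. Shares over all genes were not computed for any of these alternatives. The causes were not tested. No paired analysis was possible because the labels do not say what the title number marks, and none occurs in both layers. With 3 CP cells, a count of 0 has an exact upper bound of 70.8%.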
